A study of Homo sapiens with 72 samples.

Results

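The mRNAs of 40 ribosome biogenesis factors were followed in A375 cells, an established human melanoma line. Members were the rows of the gene count table with the symbols of 40 chosen factors, and all 40 had a row among the 44659 in the table. They fell into 5 groups by role: 5 RNA polymerase I subunits and transcription cofactors, 17 factors of the small subunit processome and 40S assembly, 5 proteins of small nucleolar ribonucleoproteins (snoRNPs), 10 factors of 60S assembly and 3 abundant nucleolar proteins. The cells were in 1 of 4 states. siCTU2 cells had received a pool of 2 small interfering RNAs (siRNAs) against CTU2, a subunit of the enzyme that thiolates the wobble uridine of a few tRNAs, and siGL2 cells had received a control siRNA, both for 42 h in medium with glutamine. pQ and mQ cells had been kept for 18 h in fresh medium with or without glutamine. In every state cells were then given triptolide, which blocks transcription, at 25 µM (T arm), or triptolide after cycloheximide, which blocks translation elongation, at 100 µg/ml (TCHX arm). Cells were harvested at 0, 3 and 5 h with 3 replicates, which gave 24 groups and 72 libraries. The labels number the replicates without saying whether they were separate cultures, so the p-values below measure the spread between these libraries.

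Ribosome biogenesis starts in the nucleolus, where RNA polymerase I transcribes the precursor of the 18S, 5.8S and 28S ribosomal RNAs. The small subunit processome folds and cleaves the 18S part, box C/D and box H/ACA snoRNPs place methyl groups and pseudouridines, and a separate series of factors builds the large subunit around 28S, 5.8S and 5S RNA. These genes are widely used as targets of MYC and of growth signalling, and melanoma cells driven by the MAPK pathway make many ribosomes.

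Each library was made from cytoplasmic RNA and counted at the 3′ ends of mRNAs, and held 5987692 to 15534331 counts. CTU2 lay between 21.1 and 24.2 CPM (counts scaled to a common library total) in the 3 siGL2 T libraries at 0 h and between 1.01 and 2.95 in the 3 siCTU2 T libraries. Markers of the melanocyte lineage summed to between 721 and 1128 CPM in the T libraries at 0 h, lower in siCTU2 (778 to 976) than in siGL2 (978 to 1110) and in mQ (721 to 891) than in pQ (980 to 1128). S100B and SOX10 were at 162 and 25.4 CPM or more in all 72 libraries, while MLANA and TYR were at or below 1.47 CPM. Leukocyte markers summed to at most 0.571 CPM in these T libraries and to at most 64.9 CPM in any of the 72. The keratinocyte list was carried by KRT10 and summed to 186 to 215 CPM in siGL2, 255 to 297 in siCTU2, 179 to 233 in pQ and 99.7 to 134 in mQ, with KRT5 at or below 0.0994 CPM throughout. In 3 libraries 19896 to 20364 genes were detected, against 15507 to 17495 in the others. They were labelled siCTU2 TCHX 5 h replicate 3, mQ T 5 h replicate 3 and pQ TCHX 0 h replicate 3. In the library labelled siCTU2 TCHX 5 h replicate 3, CTU2 stood at 10.4 CPM, above the 0.168 and 0.203 CPM of the other two replicates and against its label. None of these libraries entered the comparisons of levels at 0 h in the T arm.

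Of the 40 members, 39 had enough counts to be tested. NOC4L, a partner of NOP14, had at most 0.105 CPM in any T library at 0 h, and another row of the table for NOC4L held counts that its own row lacked. FBL, the methyltransferase of box C/D snoRNPs, read only 1.11 to 4.00 CPM at 0 h, and UTP4, an early processome subunit, 3.01 to 8.35 CPM. Both also had another row. That of UTP4 held more counts than its own row in 20 libraries, so its level is uncertain. That of FBL held at most 8 counts in any library and never more than its own row. The level of FBL is uncertain because it is so low. At the other end NPM1 lay between 2014 and 2445 CPM and NCL between 1482 and 1872 CPM in the T libraries at 0 h. CPM values from 3′ ends are not divided by transcript length. In bulk RNA, less of an mRNA in each cell and fewer cells with that mRNA cannot be told apart.

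The comparison of siCTU2 with siGL2 at 0 h set the levels of these mRNAs after the CTU2 siRNA pool beside those after the control siRNA. Loss of CTU2 and other effects of the siRNAs cannot be told apart in this design. The sum of the 40 members took 0.961% ± 0.0106 (SD, n = 3) of all counts in siGL2 and 0.847% ± 0.00957 (SD, n = 3) in siCTU2, with no overlap of the libraries. DDX21, NCL and NPM1, the 3 abundant nucleolar proteins, made up 76.4% of this gap, a split chosen after seeing the data. The other 37 members took 0.488% ± 0.0082 in siGL2 and 0.461% ± 0.0125 in siCTU2. In the TCHX arm at 0 h the gap was smaller, with the 40 members at 0.959% ± 0.0142 and 0.891% ± 0.0289 and the other 37 at 0.487% ± 0.00248 and 0.483% ± 0.00802 (SD, n = 3). By edgeR's quasi-likelihood test with Benjamini-Hochberg adjustment over 12292 genes, 13 of 39 members fell and 2 rose at an adjusted p under 0.05, while 18.2% of all genes tested were called lower and 17.8% higher. The median log2 fold change of the members was -0.09, and that of all genes was 0.00. The largest change among the members was that of DDX21, a nucleolar DEAD-box RNA helicase that links Pol I transcription to rRNA processing.

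DDX21 was at 590, 602 and 578 CPM in the 3 siGL2 libraries and at 207, 216 and 178 CPM in the 3 siCTU2 libraries. Every siCTU2 library was thus far below every siGL2 library, a log2 fold change of -1.56 ± 0.07 (SE, adjusted p = 2.51e-11 in edgeR) or 2.96-fold lower. The other 2 abundant nucleolar proteins, the histone and RNA chaperones NCL and NPM1, fell by much less. NCL went from 1807 ± 33.5 to 1555 ± 51.0 CPM (SD, n = 3), which was -0.22 ± 0.05 in log2 (SE, adjusted p = 0.00291 in edgeR). NPM1 went from 2329 ± 37.5 to 2102 ± 102 CPM, which was -0.15 ± 0.05 in log2 (SE, adjusted p = 0.0315 in edgeR). The call for NPM1 was lost without siCTU2 replicate 2 or 3 or any single siGL2 library, and in the TCHX arm at 0 h neither passed, at -0.0063 for NCL and -0.13 for NPM1. MALAT1, an RNA kept in the nucleus, lay between 2774 and 4147 CPM in siGL2 and between 3757 and 5692 CPM in siCTU2, and its part in these changes was not tested.

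Of the 10 factors of 60S assembly, 5 fell, 1 rose and 4 did not pass the test. NOC2L, which carries pre-60S particles from the nucleolus to the nucleoplasm and also binds histones, was at 198, 214 and 201 CPM in siGL2 and at 85.6, 97.3 and 85.8 CPM in siCTU2. RRP1B, a nucleolar protein of early 60S particles, was at 197, 192 and 192 CPM in siGL2 and at 102, 108 and 109 CPM in siCTU2. The groups did not overlap in either gene, with log2 fold changes of -1.19 ± 0.08 for NOC2L (SE, adjusted p = 2.66e-09 in edgeR) and -0.87 ± 0.07 for RRP1B (SE, adjusted p = 4.96e-08 in edgeR). The PeBoW complex, which is needed to process the spacer ahead of 28S rRNA, was lower in WDR12, at -0.47 ± 0.09 (SE, edgeR adjusted p = 0.000659, and 0.0819 in the TCHX arm at 0 h), and in PES1, at -0.41 ± 0.10 (SE, adjusted p = 0.0026 in edgeR). The other subunit, BOP1, did not pass, at -0.14 with a 95% interval from -0.34 to 0.067. RRS1, which helps to bring the 5S particle into the large subunit, fell by 0.30 in log2. NOP2, a methyltransferase of 28S rRNA, was at 80.7, 77.8 and 71.6 CPM in siGL2 and at 90.8, 87.5 and 91.2 CPM in siCTU2, a rise of 0.22 ± 0.09 that passed narrowly (SE, adjusted p = 0.0497 in edgeR). Without any single library the count of members that rose was 1.

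**Figure D1:**
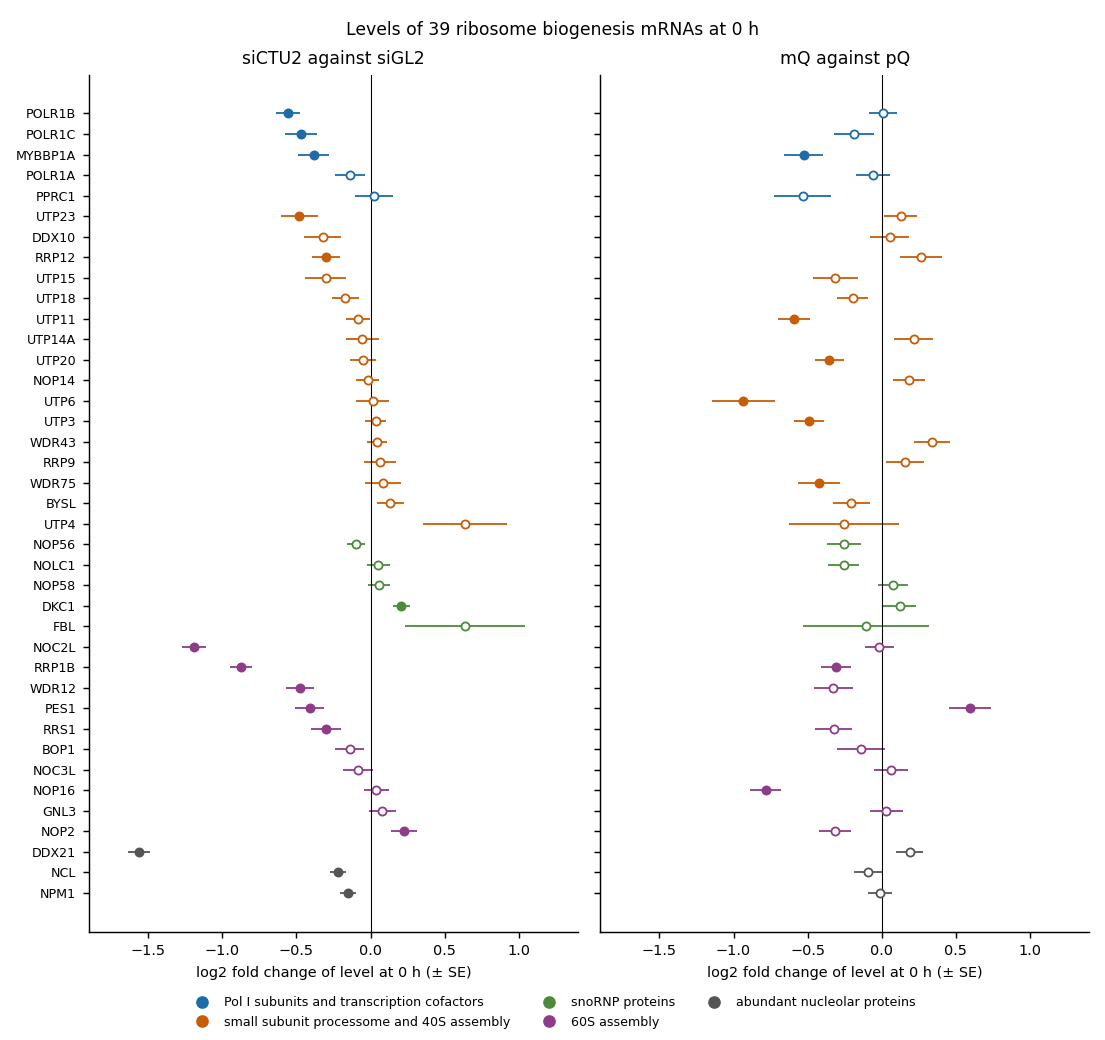
Log2 fold change of the level at 0 h (x axis, ± SE from edgeR) for the 39 members tested (y axis, ordered within each role), for siCTU2 against siGL2 on the left and mQ against pQ on the right, each with 3 libraries a group. Filled points passed an adjusted p of 0.05. DDX21 and NOC2L stand far to the left in the siCTU2 panel, UTP6 and NOP16 in the mQ panel, and PES1 lies on opposite sides of 0.

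Of the 5 members grouped as Pol I subunits and transcription cofactors, 3 fell in siCTU2. POLR1B, the second largest subunit of the enzyme, was at 190, 180 and 199 CPM in siGL2 and at 116, 136 and 135 CPM in siCTU2, with no overlap and a log2 fold change of -0.56 ± 0.08 (SE, adjusted p = 3.28e-05 in edgeR). POLR1C, a subunit shared with RNA polymerase III, changed by -0.47 ± 0.11 and MYBBP1A, a nucleolar corepressor, by -0.38 ± 0.10. The largest subunit, POLR1A, lay at 59.4, 55.7 and 64.2 CPM in siGL2 and at 57.4, 56.5 and 49.4 CPM in siCTU2, and the groups overlapped. PPRC1, a coactivator of the PGC-1 family, lay at 23.4, 25.3 and 26.8 CPM in siGL2 and at 25.9, 24.3 and 26.7 CPM in siCTU2, also with overlap.

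The small subunit factors moved least. Of 16 tested, 2 fell and none rose in siCTU2. Their median log2 fold change was -0.04. UTP23, which acts on the snoRNP that guides 18S cleavage, was at 56.7, 42.1 and 45.3 CPM in siGL2 and at 37.9, 32.6 and 33.1 CPM in siCTU2, a change of -0.48 ± 0.13 (SE, adjusted p = 0.00604 in edgeR). RRP12, an export factor of both subunits, changed by -0.30 ± 0.09 (SE, adjusted p = 0.0171 in edgeR). The other 14 lay between -0.32 for DDX10 and 0.64 for UTP4 without passing. Among the snoRNP proteins DKC1, the pseudouridine synthase of H/ACA particles, rose from 745 ± 16.9 to 863 ± 42.5 CPM (SD, n = 3), a log2 fold change of 0.21 ± 0.06 (SE, adjusted p = 0.0105 in edgeR). NOP56 and NOP58, the core pair of C/D particles, and the snoRNP chaperone NOLC1 did not pass, at -0.10, 0.06 and 0.05. FBL was at 2.43, 2.03 and 1.48 CPM in siGL2 and at 4.00, 2.95 and 2.41 CPM in siCTU2, levels too low to place.

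**Figure D2:**
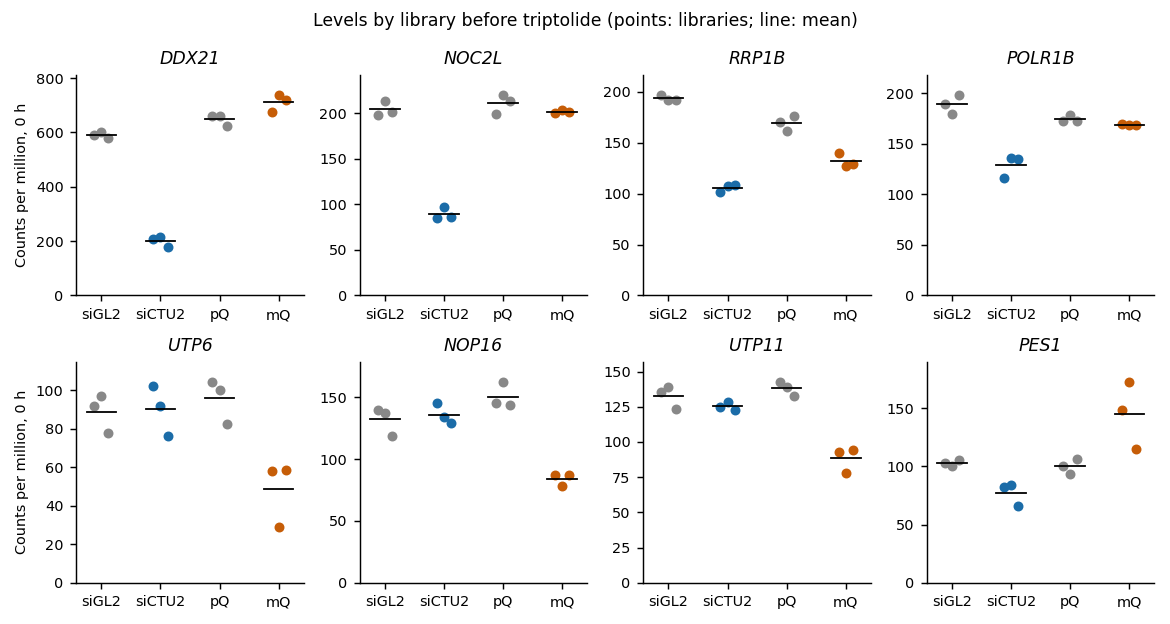
Levels in the T libraries at 0 h, in CPM (y axis, from 0), of 8 members in the 4 states (x axis); points are the 3 libraries of a group and the line is their mean. DDX21, NOC2L, RRP1B and POLR1B (top) are lower in siCTU2 without overlap, and UTP6, NOP16 and UTP11 (bottom) are lower in mQ, while PES1 is lower in siCTU2 and higher in mQ.

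The 2 CTU2 siRNAs are shown with the sites that match them because an siRNA's guide strand can pair with other mRNAs through its seed, bases 2 to 8 from its 5′ end. The sense strands are printed as the study lists them, without the 3′ overhang, and the capitals mark bases 12 to 18, which face the seed.
siCTU2, the first siRNA: cuaucaagcucAUGACCAa
siCTU2, the second siRNA: gcgugaacaugAAGGACUu
siGL2: cguacgcggaaUACUUCGa
Both CTU2 siRNAs matched the canonical CTU2 transcript over all 19 bases, inside its coding exons, at chr16:88713389-88713407 and chr16:88714907-88714925 on the plus strand (GRCh38, GENCODE release 44). In the study's methods the 2 siRNAs were designed for few predicted off-targets, and single siRNAs were compared with the pool by RT-qPCR; those measurements were not analysed here.

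The canonical DDX21 transcript held 3 matches to the 7 seed-facing bases of the second siRNA, 1 in the coding sequence and 2 in the 3′ UTR. RRP1B held 2 for the first and 1 for the second siRNA, and NOC2L held 2 for the first, both in the coding sequence. The sites are printed over the 19 bases that align with the siRNA, in the sense of the mRNA and with the same 7 bases in capitals.
DDX21, coding sequence, chr10:68963342-68963360, plus strand: tttacagcgggAAGGACTt
DDX21, 3′ UTR, chr10:68983638-68983656, plus strand: tatttaccaagAAGGACTt
DDX21, 3′ UTR, chr10:68984788-68984806, plus strand: ctatttcaataAAGGACTa
NOC2L, coding sequence, chr1:957177-957195, minus strand: cctgcaggagaATGACCAg
NOC2L, coding sequence, chr1:952422-952440, minus strand: tgcgcaacgccATGACCAc
RRP1B, coding sequence, chr21:43684578-43684596, plus strand: gactcctggaaATGACCAg
RRP1B, coding sequence, chr21:43686844-43686862, plus strand: tgctgatgaagATGACCAa
RRP1B, 3′ UTR, chr21:43695970-43695988, plus strand: actatgctggcAAGGACTt
The best of these, the first 3′ UTR site of DDX21, shared 13 of 19 bases with the siRNA. Of the 39 tested members, 21 held no match to either seed. Their median log2 change was 0.03, and 4 were called lower. Another 13 held 1 match, with a median of -0.22 and 6 called lower, and 5 held 2 or more, with a median of -0.87 and 3 called lower. POLR1A and UTP15, at -0.14 and -0.30, held 2 matches each and did not pass, while POLR1C and MYBBP1A held none and fell. Over the other genes tested with a canonical coding transcript, the medians were 0.05 for 5890 genes with no match, -0.04 for 3065 with 1 match and -0.13 for 1741 with 2 or more, and the shares called lower were 14.2%, 23.4% and 30.7%. The part of seed pairing in the level changes was not tested.

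**Figure D3:**
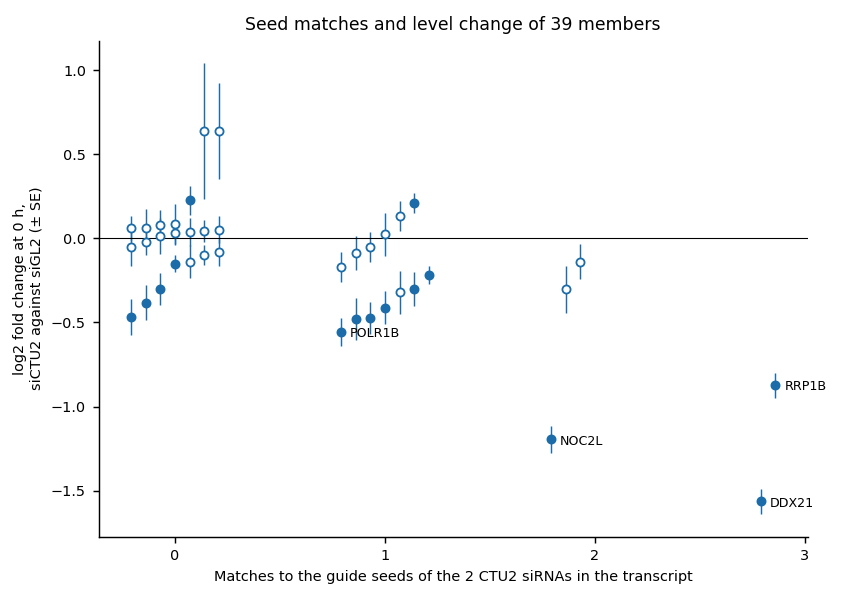
Log2 fold change at 0 h, siCTU2 against siGL2 (y axis, ± SE from edgeR), of the 39 members tested against the number of matches to the guide seeds of the 2 CTU2 siRNAs in the canonical transcript (x axis, points spread sideways for legibility). Filled points passed an adjusted p of 0.05. DDX21 and RRP1B, with 3 matches, and NOC2L, with 2, are the lowest points.

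The comparison of mQ with pQ addressed how 18 h without glutamine changed these mRNAs. Of 39 members, 8 fell and 1 rose in mQ, while 12.4% of 12374 genes tested were called lower and 12.5% higher. The median log2 fold change was -0.14 for the members and 0.01 for all genes. Of the 8, 5 were small subunit factors, and none of the abundant nucleolar or snoRNP proteins passed. MALAT1 was also higher in the mQ libraries, at 4665 to 6353 CPM against 1814 to 2858 CPM in pQ, and its part in the result was not tested. The mQ libraries varied more than the pQ libraries in several members, and the count of members lower moved between 4 and 11 when single libraries were left out, with 4 without pQ replicate 2, 5 without mQ replicate 1, pQ replicate 1 or pQ replicate 3, and 11 without mQ replicate 2.

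NOP16, a factor of early 60S particles, was at 146, 163 and 144 CPM in pQ and at 87.6, 78.7 and 86.9 CPM in mQ. These groups did not overlap, and the log2 fold change was -0.78 ± 0.11 (SE, adjusted p = 0.000474 in edgeR). In the TCHX arm at 0 h NOP16 did not pass, at -0.44 (edgeR adjusted p = 0.0992). UTP6, a repeat protein of the processome, was at 104, 100 and 82.7 CPM in pQ and at 57.9, 29.2 and 58.4 CPM in mQ, a change of -0.93 ± 0.21 (SE, adjusted p = 0.00862 in edgeR). The lowest of the mQ libraries, replicate 2, was also lowest for UTP11, which belongs to the same particle. UTP11 was at 143, 139 and 133 CPM in pQ and at 92.8, 77.7 and 94.6 CPM in mQ, a change of -0.59 ± 0.11 (SE, adjusted p = 0.00301 in edgeR). UTP3 changed by -0.49 ± 0.10, WDR75 by -0.42 ± 0.14 and UTP20 by -0.35 ± 0.10. MYBBP1A, at 45.9, 49.4 and 45.5 CPM in pQ and 35.8, 28.2 and 30.5 CPM in mQ, changed by -0.53 ± 0.13 (SE, adjusted p = 0.0132 in edgeR), and RRP1B by -0.31 ± 0.10. The call for MYBBP1A was lost in the TCHX arm at 0 h, at -0.39 (edgeR adjusted p = 0.0963), and without pQ replicate 2.

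PES1 was the member that rose, from 100, 93.5 and 107 CPM in pQ to 149, 173 and 115 CPM in mQ, a log2 fold change of 0.59 ± 0.14 (SE, adjusted p = 0.0106 in edgeR). In the TCHX arm at 0 h the same comparison gave -0.011 for PES1 once the pQ library that stands apart was left out, a choice made after seeing the data, and 0.021 with that library kept, neither of which passed. The call for PES1 was also lost without pQ replicate 1 or 2. UTP6 read 0.057 in the TCHX arm with that library kept and -0.25 without it, also without passing. Over both arms at 0 h PES1 stood at 0.30 and UTP6 at -0.44, and neither passed. DDX21 lay at 660, 661 and 623 CPM in pQ and at 674, 739 and 721 CPM in mQ and did not pass, at 0.19 with a 95% interval from -0.0068 to 0.38. NCL lay at 1660 ± 174 CPM in mQ and 1836 ± 39.8 CPM in pQ, and NPM1 at 2293 ± 121 and 2402 ± 38.3 CPM (SD, n = 3), with overlapping libraries in both genes. POLR1A lay at 51.6, 59.3 and 59.3 CPM in mQ and 63.7, 57.8 and 62.9 CPM in pQ. POLR1B lay at 170, 168 and 169 CPM in mQ and 173, 178 and 173 CPM in pQ. PPRC1, at 26.7, 34.4 and 34.3 CPM in pQ and 23.4, 15.5 and 25.0 CPM in mQ, changed by -0.53 without passing (edgeR adjusted p = 0.0594), although the groups did not overlap. It passed as lower with DESeq2, without a filter, over both arms at 0 h, in the TCHX arm without the library that stands apart and without mQ replicate 3, with adjusted p from 0.0151 to 0.043, and not in the other 9 alternatives. FBL read 1.11 to 2.14 CPM in mQ and 1.72 to 2.05 CPM in pQ.

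The 2 responses at 0 h were then compared with each other, as the change in siCTU2 minus the change in mQ. The number of members called in both comparisons was 3, namely MYBBP1A, RRP1B and PES1. A further 12 were called in siCTU2 alone, 6 in mQ alone and 18 in neither. No shares of all genes are given for this split. The test of the difference itself called 16.1% of the 12950 genes tested lower and 15.9% higher. At similar shares, the difference passed in 12 of 39 members, 7 in the lower and 5 in the higher direction. It was lower, meaning more reduced by siCTU2, for DDX21, NOC2L, PES1, UTP23, RRP12, RRP1B and POLR1B, from -1.75 ± 0.12 (SE, adjusted p = 4.01e-09 in edgeR) in DDX21 to -0.56 ± 0.12 (SE, adjusted p = 0.00161 in edgeR) in POLR1B. It was higher for UTP6, NOP16, NOP2, UTP3 and UTP11, from 0.95 ± 0.26 in UTP6 to 0.51 ± 0.13 in UTP11. PES1 was the only member called in opposite directions in the 2 comparisons, with a difference of -1.0 ± 0.18 (SE, adjusted p = 0.000397 in edgeR). Without replicate 1 in any group the counts were 3 lower and 2 higher. Among the calls lost there were those of POLR1B and RRP1B (edgeR adjusted p = 0.0707 for each) and UTP6 (edgeR adjusted p = 0.11).

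The T arm measured how much of each mRNA was left once transcription had stopped. Counts were scaled by genes that the study's rule calls stable, 197 in the siRNA and 81 in the glutamine experiment, none of them members. The rule asks for a later CPM of at least 1.1 times that at 0 h, so a gene of unchanged CPM tends to fall on this scale. The scaling genes met the rule at 3 h or at 5 h, while only 8 and 3 genes met it at both times. On this scale the median log2 change of all genes over 3 h was -0.47 in siGL2, -0.55 in siCTU2, -0.70 in pQ and -0.72 in mQ. The members' medians were -0.56, -0.63, -0.73 and -0.87. The number of members that fell was 35 of 39 in siGL2, against 57.2% of all genes tested, 37 in siCTU2, against 67.1%, 37 in pQ, against 72% and 37 in mQ, against 69.6%. None rose, and 34 fell in all 4 states, a count for which no share of all genes is given here. With TMM scaling, which brings the median of all genes near 0, these counts became 10 lower and 3 higher in siGL2, 11 and 5 in siCTU2, 6 and 4 in pQ, and 13 and 1 in mQ. The median of all genes on that scale was 0.02, 0.02, 0.03 and -0.01. The members' loss is therefore set beside that of all genes, and the percents kept below hold only on the stable-gene scale. On it the median gene kept 72.6% at 3 h in siGL2, 68.9% in siCTU2, 62.0% in pQ and 61.9% in mQ. The median member kept 67.5%, 65.5%, 59.9% and 56.4%.

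PPRC1, UTP23, RRS1 and POLR1C were lost fastest. PPRC1 kept 17%, 22.9% and 9.17% of its 0 h level in the 3 siGL2 libraries at 3 h, and 12.8%, 23.1% and 15.0% in siCTU2. In pQ it kept 15.4%, 11.9% and 10.4% and in mQ 7.06%, 22.9% and 7.90%. Its log2 change was between -3.19 in mQ and -2.59 in siCTU2, the largest of all members in each state. UTP23 kept 31.8% ± 8.26 in siGL2, 21.5% ± 6.13 in siCTU2, 29.6% ± 9.27 in pQ and 20.5% ± 1.73 in mQ (SD, n = 3). RRS1 kept 39.1% ± 2.18, 23.2% ± 8.64, 31.8% ± 2.70 and 19.4% ± 6.90 in the same order. POLR1C kept 36.5% ± 4.21, 24.2% ± 7.64, 31.1% ± 5.13 and 29.5% ± 9.52. All 4 fell in each state also with TMM scaling, by -2.48 in mQ for PPRC1 to -0.86 in siGL2 for RRS1.

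The other Pol I subunits differed from each other. POLR1B kept between 37.0% in mQ and 50.7% in siGL2, and POLR1A between 55.6% in mQ and 69.1% in siCTU2. Among the small subunit factors WDR43, which couples the processome to Pol I transcription, kept 51.3% ± 1.30 in siGL2 and 36.0% ± 5.18 in mQ. RRP9, a U3 snoRNP protein, kept 83.6% ± 13.9 in siGL2 and 89.8% ± 5.96 in siCTU2 and passed in neither. In the 60S group BOP1 kept 99.0% ± 16.5 in siGL2, 96.4% ± 4.17 in siCTU2 and 84.0% ± 5.38 in pQ, the highest means of the group there, and 68.6% ± 9.82 in mQ, below NOC2L and WDR12. It passed in pQ and mQ but not in siGL2 or siCTU2. NPM1 kept more than the median gene in all 4 states and NCL in all but mQ, at 80.0% ± 1.96 and 74.2% ± 0.522 in siGL2 against a median of 72.6% over all genes. With TMM scaling the direction of NPM1 turned in all 4 states and that of NCL in siGL2, siCTU2 and pQ, to values from 0.065 to 0.23. Members that missed the test in at least 1 state were FBL, UTP4, RRP9, BOP1 and NOC2L.

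The TCHX arm asked how much of this loss depended on ongoing translation. At 3 h, 9 of 39 members were higher with cycloheximide than without it in siGL2, 13 in siCTU2, 5 in pQ and 12 in mQ, against 8.45%, 14.5%, 5.42% and 16% of all genes tested. No member was lower. The members higher in all 4 states were 5, namely PPRC1, UTP23, RRS1, WDR43 and NOP2. Those higher in at least 1 state were 17, and 22 were higher in none. No shares of all genes are given for these counts over states. The count in siCTU2 was 8 when the stable genes were chosen without the libraries that stand apart, 4 when they had to be stable at both times, and 6 without replicate 1. The counts were also lower without replicate 1 or 2 in siGL2, at 4 and 5, and in pQ, at 1 and 2. The calls of UTP23, RRS1, WDR43 and NOP2 in pQ were lost without replicate 1, and that of NOP2 in siGL2 without replicate 1 or 2. With the difference between the arms at 0 h subtracted the counts were 4 in siGL2 and 3 in pQ.

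PPRC1 kept 64.4%, 80.8% and 57.4% with cycloheximide in siGL2, above each of the 3 libraries without it. In siCTU2 it kept 76.4%, 68.1% and 61.3%, in pQ 50.6%, 46.7% and 82.5%, and in mQ 65.5%, 54.3% and 49.9%. The effect of cycloheximide was 2.24 ± 0.23 in siGL2 (SE, adjusted p = 4.27e-07 in edgeR), 1.97 ± 0.17 in siCTU2, 2.04 ± 0.24 in pQ and 2.46 ± 0.29 in mQ on the log2 scale. UTP23 kept 59.8% to 63.4% on average with cycloheximide, with effects from 0.90 ± 0.25 in pQ to 1.57 ± 0.15 in siCTU2. RRS1 kept 64.6% to 72.6%, with effects from 0.93 ± 0.12 in siGL2 to 1.66 ± 0.16 in siCTU2. NOP2 had effects from 0.53 ± 0.12 in siGL2 to 0.94 ± 0.12 in mQ, and WDR43 from 0.46 ± 0.10 in pQ to 0.72 ± 0.13 in mQ. POLR1C kept 46.8% to 50.2% with cycloheximide, and its effect passed in 3 states but not in pQ, at 0.40 ± 0.20. POLR1B rose with cycloheximide in 3 states and not in pQ, and POLR1A in siGL2, at 0.44 ± 0.11, and in no other state. In siGL2 the call for POLR1B was lost without any single replicate number, with genes stable at both times, without a filter, without the libraries that stand apart and with the 0 h difference subtracted, at 0.24 to 0.38. In siCTU2 it was lost without replicate 1 and with genes stable at both times, and in mQ it passed in all 10 alternatives. That for POLR1A in siGL2 was lost without replicate 1 or 2, with genes stable at both times and with the 0 h difference subtracted, at 0.34 to 0.53.

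The 22 members higher in no state at 3 h included the 5 snoRNP proteins, NCL and NPM1. They also included members of the other roles, among them UTP20, RRP12, MYBBP1A, PES1 and RRP1B. The effects on NCL lay between -0.02 and 0.07 and those on NPM1 between -0.10 and 0.01. Members called in mQ but in no other state were UTP3, at 0.76 ± 0.14, UTP15, at 1.01 ± 0.15, and BYSL, at 0.56 ± 0.14, all 3 of the small subunit. With the 0 h difference between the arms subtracted UTP15 stood at 0.55 and did not pass (edgeR adjusted p = 0.134). Those called in siCTU2 but in no other state were DDX10, NOC3L, GNL3 and DDX21.

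**Figure D4:**
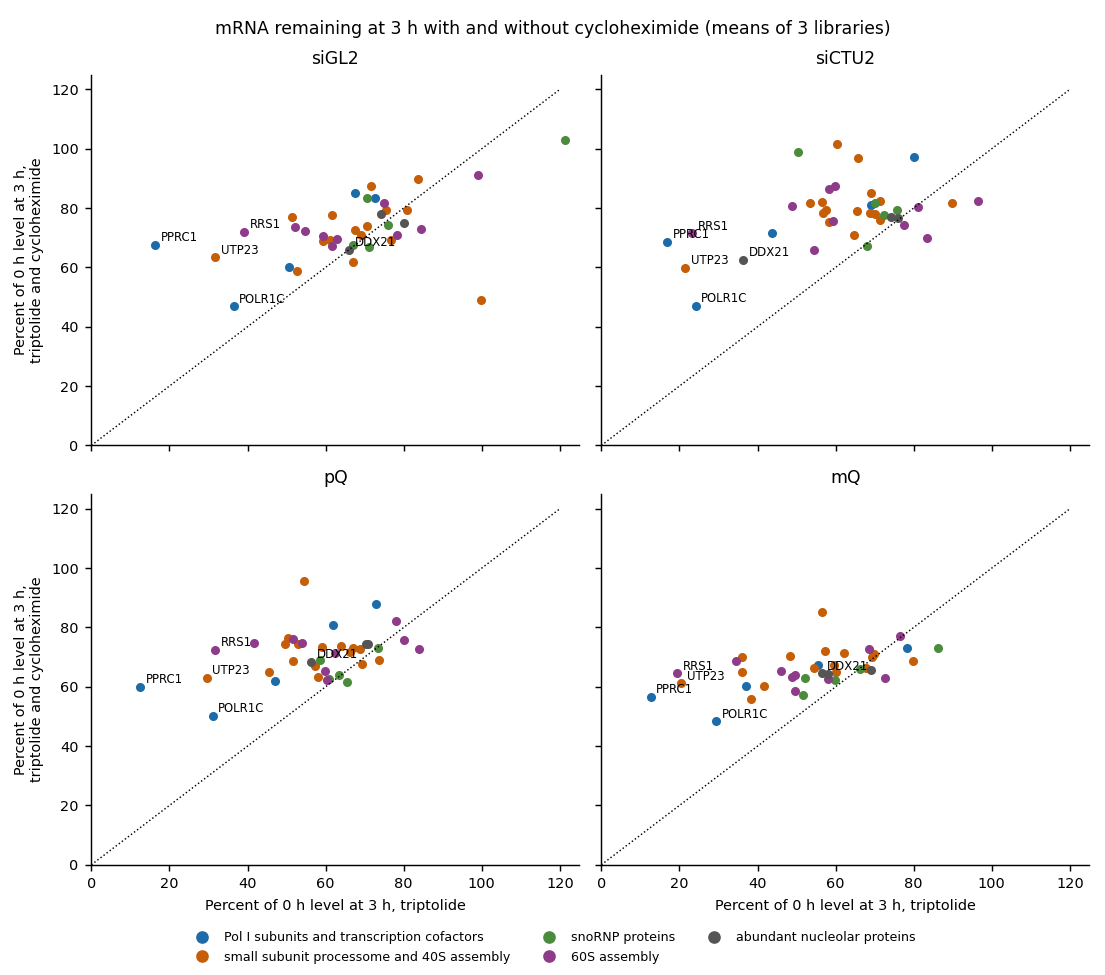
Mean percent of the 0 h level left at 3 h with triptolide alone (x axis) and with triptolide and cycloheximide (y axis) in the 4 states, 1 point for each of the 39 members, coloured by role, from 3 libraries each. The dotted line marks equal values. PPRC1, UTP23 and RRS1 lie far above it in each state, and DDX21 leaves the line in siCTU2.

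Whether decay and the effect of cycloheximide differed between states was tested with interaction terms. For siCTU2 against siGL2, 1 of 39 members passed for decay, against 0.709% of 13821 genes called in the lower direction, and none for cycloheximide, against 0.137% called in the higher direction. The member was DDX21. It kept 69.6%, 66.7% and 61.8% at 3 h in siGL2 and 34.2%, 41.4% and 33.5% in siCTU2, so that each siCTU2 library was below each siGL2 library. The difference in log2 change was -0.86 ± 0.17 (SE, adjusted p = 0.00393 in edgeR). With cycloheximide DDX21 kept 62.5%, 69.4% and 66.1% in siGL2 and 58.8%, 66.9% and 62.0% in siCTU2, which overlapped. Its cycloheximide effect was 0.06 ± 0.10 in siGL2 and 0.74 ± 0.12 in siCTU2. In the main fit, which left out replicate numbers, the difference of 0.69 ± 0.17 did not pass (SE, adjusted p = 0.0815 in edgeR). It passed in 4 of 9 alternatives, with adjusted p from 3.44e-05 to 0.0471, namely TMM scaling, DESeq2, no filter and the fit with replicate numbers. In the other 5 alternatives the adjusted p lay between 0.0958 and 1.00. The call for decay was lost without replicate 1, at -0.77 (edgeR adjusted p = 0.463), and with genes required to be stable at both times, at -0.70 (edgeR adjusted p = 0.701), and its adjusted p lay below 0.05 in the other 7 alternatives. DDX21 is also the member with 3 seed matches described above, and the part of these in its decay was not tested. RRS1 came next, with a decay difference of -0.80 ± 0.21 (SE, adjusted p = 0.0592 in edgeR) and a cycloheximide difference of 0.73 ± 0.21 (SE, adjusted p = 0.203 in edgeR). Its decay difference passed in 3 of 9 alternatives, namely DESeq2 (adjusted p = 0.0181), no filter (edgeR adjusted p = 0.00126) and the fit with replicate numbers, and its cycloheximide difference in the latter 2. Without replicate 1 the decay difference of RRS1 was -0.46 (edgeR adjusted p = 0.724).

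For mQ against pQ no member passed in edgeR for decay or for cycloheximide, against 0.102% and 0.0658% of 13680 genes, although 7 and 4 members had an unadjusted p under 0.05. With DESeq2 1 member passed for decay. PES1, which was higher in mQ at 0 h, kept 49.7% ± 9.48 in mQ and 80.0% ± 1.67 in pQ (SD, n = 3). The difference in log2 change was -0.72 ± 0.18 (SE, adjusted p = 0.139 in edgeR). The rise at 0 h and the percent kept rest on the same mQ T libraries at 0 h. In the TCHX arm at 0 h PES1 stood at 0.021 in mQ against pQ and did not pass. The part of the 0 h level in the decay difference was not tested. RRS1 had a decay difference of -0.74 ± 0.22 and WDR43 of -0.58 ± 0.16, neither of which passed. Without replicate 3 the number of members with faster decay in mQ was 3.

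**Figure D5:**
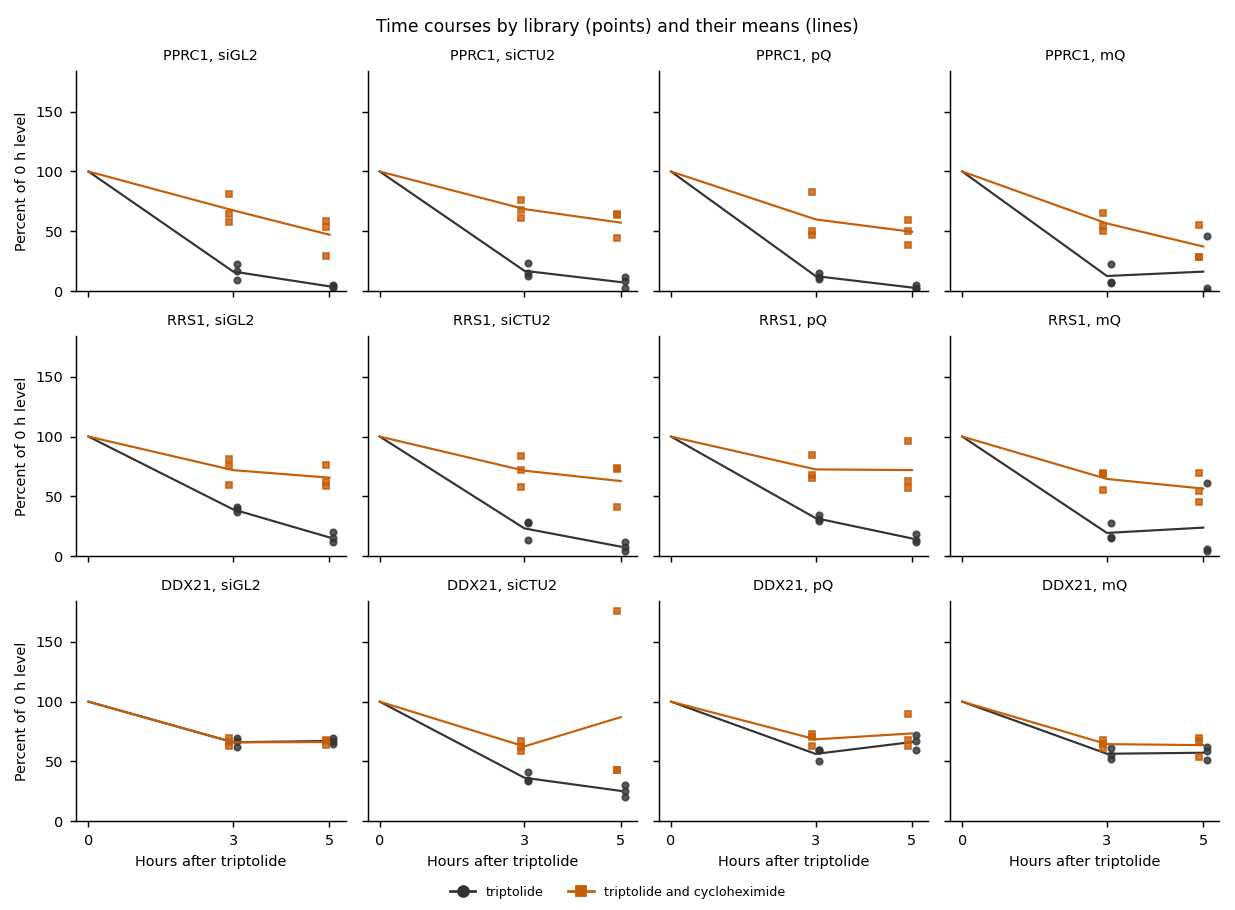
Percent of the 0 h level (y axis) at 0, 3 and 5 h after triptolide (x axis) for PPRC1, RRS1 and DDX21 (rows) in the 4 states (columns), without and with cycloheximide; points are single libraries and lines join their means. PPRC1 and RRS1 decline steeply without cycloheximide, the siCTU2 panel of DDX21 shows faster loss, and the single high points at 5 h belong to the libraries labelled mQ T replicate 3 and siCTU2 TCHX replicate 3.

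At 5 h the members that had fallen numbered 28 in siGL2, 33 in siCTU2, 27 in pQ and 30 in mQ, against 47.4%, 63.4%, 51.8% and 43.8% of all genes tested. Those higher with cycloheximide numbered 11, 13, 10 and 0, against 9.44%, 19.2%, 9.88% and 0.193%. The 0 in mQ came from edgeR, where 7 members had an unadjusted p under 0.05. The count in siCTU2 included 1 snoRNP member, FBL, whose level was too low to place. These counts turned on replicate 3, and the counts with libraries left out stand without the shares of all genes. Without it, 35 members fell in mQ and 17 were higher with cycloheximide, and in pQ the counts were 33 and 13 and in siGL2 the cycloheximide count was 15. Without replicate 2 no member passed in mQ for decay and 16 in pQ, and without replicate 1 the counts were 4 in mQ and 22 in pQ. Without replicate 1 or 2 the cycloheximide count was 4 in siGL2 and 3 in pQ, and without replicate 1 it was 8 in siCTU2. In the library labelled mQ T replicate 3, PPRC1 was at 45.9% of its 0 h level, against 0% and 2.97% in the other two, and RRS1 at 61.3% against 4.31% and 6.06%. In the siCTU2 TCHX libraries DDX21 was at 42.5% and 43.1% in replicates 1 and 2 and at 176% in the library labelled replicate 3. In siCTU2 without cycloheximide DDX21 kept 20.6%, 30.3% and 25.2% at 5 h, below the 64.6%, 66.8% and 70.0% of siGL2.

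The translation-dependent degradation (TDD) index is the gap between the arms at 3 and 5 h as a share of the 0 h level, compared between states in a linear model with time and replicate after the study's method, at an unadjusted p of at most 0.05. In siCTU2 against siGL2, 1 of 39 members had a higher index, against 7.28% of 12288 genes, and in mQ against pQ none had, against 3.48% of 12428 genes. The smallest adjusted p over all genes was 0.163 and 0.448. The member was NOC2L, with an index of 0.13 in siCTU2 and -0.13 in siGL2 and a difference of 0.25 ± 0.10 (SE), and this call was lost without replicate 1 or 2. DDX21 had an index of 0.43 in siCTU2 and 0.022 in siGL2, and the difference of 0.41 ± 0.22 did not pass. The siCTU2 value included the TCHX library at 5 h with DDX21 at 176%, the one in which CTU2 stood high. Without replicate 3 in any group the index of DDX21 was 0.20 in siCTU2 and 0.045 in siGL2, and the difference of 0.15 ± 0.04 (SE) passed. PPRC1 had the index 0.49 in siCTU2 and 0.52 in siGL2, which did not pass, and without replicate 3 it was lower in siCTU2, by -0.13 ± 0.03 (SE). Without replicate 3 the counts of members with a higher index were 3 in siCTU2 and 13 in mQ. With each arm set against its own 0 h library they were 5 and 4, and with TMM scaling 3 in mQ. The shares of all genes under these settings are not given here, so these counts do not set the members apart from other genes.

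A list of 105 symbols of other genes of the same pathway was set beside the members, of which 97 to 98 were tested. In siCTU2 27 of 97 fell and 12 rose, against 18.2% and 17.8% of all genes tested, and the median change was -0.09 in log2. In mQ 16 of 98 fell and 5 rose, against 12.4% and 12.5%, and the median was -0.08. Of 10 other genes of the Pol I machinery tested, 4 fell in siCTU2 and none in mQ. Among them were POLR1F, a subunit of the Pol I stalk, at -1.26 ± 0.09, and UBTF, the factor that opens rDNA chromatin, at -0.64 ± 0.09. RRP1, the paralog of RRP1B, was at -1.15 ± 0.12 in siCTU2. Of the 11 late 40S factors none fell and 3 rose in siCTU2. In mQ 7 of the 21 other genes of the snoRNPs and the rRNA processing exosome fell, among them EXOSC3 at -0.82 ± 0.21, while EXOSC6 rose by 1.04 ± 0.11. Over 3 h of triptolide 88, 94, 94 and 94 of 98 fell in siGL2, siCTU2, pQ and mQ, against 57.2%, 67.1%, 72% and 69.6% of all genes. Those higher with cycloheximide were 14, 27, 7 and 26, against 8.45%, 14.5%, 5.42% and 16%. PPAN, a 60S factor, was among the latter in each state, with an effect of 1.04 ± 0.19 in pQ and 1.51 ± 0.21 in mQ.

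The members shared features of sequence that the choice of symbols had not used. Lysine, glutamate and aspartate codons made up a median of 22.4% of their coding sequences, against 18.0% over 10696 other genes tested, and 34 of 40 members lay above that median. NCL, at 37.5%, and NPM1, at 33.3%, were highest, and UTP4, at 14.6%, was lowest. By single residue, the members' median was higher for lysine, at 9.06% against 5.83%, and for glutamate, at 8.42% against 7.02%. For aspartate the members' median was not higher, and 19 of 40 members lay above the median of the other genes. The AAA codon, one of those read by the tRNAs that CTU2 modifies, had a median share of 3.74% of codons in the members and 2.40% in the other genes, and GAA had 3.64% and 2.90%, while CAA had 0.996% and 1.05%. The members' 3′ UTRs were short, with a median of 462.5 bases against 1434.5. The AU-rich pentamer ATTTA occurred in 27 of 40 members' 3′ UTRs, 67.5% against 75.9% of the other genes, and the heptamer TATTTAT in 7, or 17.5% against 38.3%. Among the 5 members higher with cycloheximide in each state, the pentamer was counted 8 times in UTP23, 6 times in WDR43, once in NOP2 and RRS1 and not at all in PPRC1.

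Promoter windows from 250 bases before to 50 after the start of transcription were listed by RefSeq (GRCh38.p14) for 33 of the 40 members. The E-box CACGTG, the letters bound by MYC and related factors, occurred in 15 of these, or 45.5%, against 12.7% of 9473 other genes tested and 8.77% of all 27305 genes listed. The motif is its own reverse complement, so both strands were searched at once. The 15 were DDX21, PES1, NOP2, WDR43, MYBBP1A, UTP4, UTP14A, UTP18, UTP20, NOP14, RRP9, BYSL, FBL, NOC3L and GNL3. The motif is shown for 5 of them as examples, picked after their values were seen, in the direction of the gene and with the motif in capitals.
DDX21, chr10:68956604-68956633, plus strand: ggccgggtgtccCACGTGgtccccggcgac
PES1, chr22:30591880-30591909, minus strand: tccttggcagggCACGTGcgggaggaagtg
NOP2, chr12:6568242-6568268, minus strand: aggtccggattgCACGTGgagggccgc
WDR43, chr2:28894658-28894687, plus strand: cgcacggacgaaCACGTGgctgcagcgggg
MYBBP1A, chr17:4555340-4555369, minus strand: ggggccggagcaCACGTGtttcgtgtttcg
Binding of any factor was not measured.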

How the data were processed

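Cytoplasmic RNA of A375 cells was sequenced from the 3′ ends of mRNAs. The authors trimmed the reads with fastp 0.20.1, aligned them to GRCh38.p13 with HISAT2 2.2.1, counted them with HTSeq 0.13.5 and deposited raw counts for each gene and library. From these counts, levels at 0 h were tested with edgeR 4.0.16 (R 4.3.3) after its filter on low counts and TMM scaling. Decay and cycloheximide effects were tested in edgeR with size factors from genes that stay stable after triptolide, after the study's methods. The translation-dependent degradation index followed the study's linear model. Adjusted p-values are Benjamini-Hochberg values over all genes tested, at a threshold of 0.05. DESeq2 1.42.0, other scalings, filters and left-out libraries were tried as alternatives. The tests were checked on simulated data. There the decay, cycloheximide and degradation index data were scaled by their own library totals, so the choice of stable genes was not checked. Totals of 5987692 to 15534331 counts set the precision, and no 2 replicates agreed within sampling noise. Same-numbered siCTU2 and siGL2 libraries at 0 h deviated together, with correlations of 0.105 to 0.294, so the numbers paired them. The main edgeR tests nevertheless left the replicate number out, and fits with it are reported among the alternatives. Members and lists were chosen with earlier results of these data known. Named genes were the largest change of each role, those with the smallest p up to 6, and always PPRC1, NCL, NPM1, FBL, POLR1A and POLR1B. Some further members were named after their values were seen, among them UTP23, RRS1, WDR43 and NOP2. Seed sites were searched in canonical transcripts of GENCODE release 44.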

Additional observations from a re-analysis of the deposited data

Results flagged for a closer look

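The results below differed between the siRNA and the glutamine experiments, by an edgeR interaction test with an adjusted p under 0.05. Of 39 members 7 were lower and 5 higher, near the shares of all genes tested, 16.1% and 15.9%. These counts do not set the members apart from other genes. The change in siCTU2 minus the change in mQ, on the log2 scale at 0 h, was -1.75 for DDX21, -1.18 for NOC2L, -1.0 for PES1, -0.61 for UTP23, -0.57 for RRP12, -0.56 for RRP1B and -0.56 for POLR1B. It was 0.95 for UTP6, 0.82 for NOP16, 0.54 for NOP2, 0.52 for UTP3 and 0.51 for UTP11. The decay of DDX21 over 3 h also differed between siCTU2 and siGL2, by -0.86 on the log2 scale. It was 1 of 39 members, against 0.709% of genes called in that direction. The DDX21 decay call was lost without replicate 1 and with genes stable at both times. Those of POLR1B, RRP1B and UTP6 at 0 h were lost without replicate 1.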

How the results depend on the processing

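Of the alternatives run for single named members, 1163 kept the direction and the side of the threshold, 82 lost the call, 25 gained one and 15 turned the direction. With TMM scaling the members lower and higher over 3 h were 10 and 3 in siGL2, 11 and 5 in siCTU2, 6 and 4 in pQ and 13 and 1 in mQ, and over 5 h 11 and 5, 12 and 6, and 12 and 5, with 5 lower in mQ. TMM scaling also gave 1 member lower with cycloheximide at 3 h in mQ, 3 higher at 5 h in mQ, 1 with a larger cycloheximide effect in siCTU2 than in siGL2, 2 with a lower degradation index in siCTU2 and 3 with a higher one in mQ. It turned the 3 h decay of NCL to 0.065, 0.18 and 0.23 and of NPM1 to 0.17, 0.14 and 0.22 in siGL2, siCTU2 and pQ, of NPM1 to 0.17 in mQ, of NOP56 to 0.017 and 0.011 and of POLR1A to 0.031 and 0.035 in siCTU2 and pQ, and the cycloheximide effect on NOP58 in siCTU2 to -0.024.

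Tested against a 1.5-fold change, 3 members were lower and 0 higher in siCTU2, and 0 and 0 in mQ. The TCHX arm at 0 h gave 5 lower and 0 higher in mQ, with UTP6 at 0.057, and 14 lower without the library that stands apart, with PES1 at -0.011. Both arms together gave 13 lower and 2 higher in mQ and 4 higher in siCTU2. DESeq2 gave 1 member higher in siCTU2, 2 with faster decay and 1 with a larger cycloheximide effect in siCTU2 than in siGL2, and 1 with faster decay in mQ than in pQ. Without a filter these were 1 higher in siCTU2, 2 higher in mQ, 2 with faster decay and 2 with a larger cycloheximide effect in siCTU2. Genes stable at both times, only 8 in the siRNA and 3 in the glutamine experiment, were also tried. They gave 4 members higher with cycloheximide in siCTU2, 0 with faster decay in siCTU2 than in siGL2 and 4 in mQ than in pQ. Stable genes chosen without the libraries that stand apart gave 8 higher with cycloheximide in siCTU2. Subtracting the 0 h difference gave 4 in siGL2 and 3 in pQ and turned the effect on DDX21 in siGL2, which had not passed, to -0.0054. With each arm over its own 0 h library the degradation index was higher for 5 members in siCTU2 and for 4 in mQ, and lower for 3 in mQ.

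Outside the siCTU2 and siGL2 libraries at 0 h the replicate numbers did not meet the rule for pairing, which asks that every same-numbered pair correlate above 0.1. The correlations were -0.166 to 0.136 for mQ and pQ at 0 h. Within a state over 0 and 3 h the lowest was 0.0946 in siGL2, 0.0794 in siCTU2, -0.0081 in pQ and -0.0268 in mQ. The data still hint at a shared source, since the mean there was 0.242 to 0.288 for the same number. The mean for different numbers, -0.144 to -0.119, follows largely from centring the values within each group and adds no support. Of 12 libraries, 11 in siGL2 and 12 in each of the other states were closest to their own number. The column names also give each number a prefix of its own, whose meaning the labels do not state. With the replicate block the difference between siCTU2 and siGL2 passed for DDX21 in cycloheximide effect (0.69, edgeR adjusted p = 3.44e-05) and for RRS1 in decay (-0.79, edgeR adjusted p = 0.00956) and cycloheximide effect (0.72, edgeR adjusted p = 0.0436), and DKC1 was higher with cycloheximide at 3 h in siGL2 (0.20, edgeR adjusted p = 0.0143). With it 5 members were lower in mQ, 2 had faster decay and 2 a larger cycloheximide effect in siCTU2 than in siGL2, and 1 was higher with cycloheximide at 5 h in mQ. The block gave 15 lower and 2 higher in siCTU2 at 0 h and changed no call of the members named there. With no replicate block 2 members had a higher degradation index in mQ.

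Leaving out single libraries or replicate numbers gave 1 member higher in siCTU2 each time, 4 to 11 lower and 0 to 2 higher in mQ, and 3 to 6 lower and 2 to 6 higher for the difference of the responses. It gave 4 to 8, 6 to 13 and 1 to 5 members higher with cycloheximide at 3 h in siGL2, siCTU2 and pQ. Faster decay was found for 0 to 1 member in siCTU2 and 0 to 3 in mQ. At 5 h 16 to 33 members were lower in pQ and 0 to 35 in mQ. Those higher with cycloheximide were 4 to 15, 8 to 13, 3 to 13 and 0 to 17 in siGL2, siCTU2, pQ and mQ, and those lower 0 to 1 in siGL2. The degradation index was lower for 0 to 1 and higher for 1 to 3 members in siCTU2, and lower for 0 to 1 and higher for 0 to 13 in mQ. The causes of these changes were not tested. Throughout, member counts under the alternatives are given without the shares of all genes, so they do not set the members apart. Low counts limit FBL and UTP4, at 1.11 to 8.35 CPM in the T libraries at 0 h, and NOC4L could not be tested. Each of these members also had another row, as described above, and why their own rows were low was not tested.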
